A study of Mus musculus with 4 samples.

Results

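The granin and prohormone processing genes described here were *Chga*, *Chgb*, *Scg2*, *Scg3*, *Vgf*, *Pcsk1*, *Pcsk2*, *Cpe*, *Scg5* and *Pcsk1n*, 10 of the 52636 genes counted in sorted embryonic mouse kidney cells. They were chosen by their shared role, with the differences between control and *Eya1*cKO libraries in these same counts already known. The difference between genotypes is therefore given for these 10 genes as a description: no p-value is given for any of them, and the count of those past the threshold supports nothing. *Chga*, *Chgb* and *Scg2* were low in the control libraries, at means of 1.32, 3.51 and 0.124 CPM, and were 122-fold, 51.4-fold and 217-fold higher in the *Eya1*cKO libraries. *Cpe*, which was already expressed in the controls, was 2.54-fold higher. The prohormone convertases *Pcsk1* and *Pcsk2* remained low or uneven.

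Granins are acidic secretory proteins that condense in the trans-Golgi network and fill the dense-core granules of neurons and endocrine cells. Within these granules, prohormone convertases cut precursor proteins after pairs of basic residues, carboxypeptidase E trims the basic residues that are left, and small binding proteins control the convertases. Chromogranin A, the product of *Chga*, is a classical marker of adrenal chromaffin cells and other neuroendocrine cells.

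The study compared tdTomato+ cells of control kidneys, which carried *Eya1* CreER and the *R26-tdTomato* reporter, with those of *Eya1*cKO kidneys, which also carried *Eya1* fl/fl. Both genotypes were on a mixed C57BL/6J and 129/Sv background, were given tamoxifen by way of the mother, and were harvested 48 h after the first dose, at about E12.5 to E12.75. CreER was expressed from the *Eya1* locus, so that the reporter marked the *Eya1* lineage in both genotypes and the controls lacked the floxed alleles but not the driver. There were 2 libraries per genotype, each of 5000 sorted cells, and the methods state that cell suspensions of several embryos were combined before sorting. The authors call the libraries of a genotype biological replicates, each made from its own portion of cells sorted at the same time. The sources used here do not say whether these portions held cells of different animals, so that p-values measure only the spread between these libraries, which may be technical.

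Between 17457452 and 37999342 reads per library were assigned to genes, with fewer in both *Eya1*cKO libraries than in both control libraries. Reads outside genes were 12.9% to 13.9% of the reads recorded in the controls and 20.9% to 22.7% in *Eya1*cKO. Unaligned reads made up 6.32% and 6.69% of control and 12.9% and 12.7% of *Eya1*cKO reads. Genes with at least 1 read numbered 26486 and 27091 in the controls and 21455 and 20538 in *Eya1*cKO. These library measures moved with the genotype, and their part in the differences was not tested. *Eya1* had 6612 and 6420 counts in the controls and 377 and 219 in *Eya1*cKO, which left 8.08% of the control level in CPM, the counts of a gene scaled to a common library total. The nephron progenitor marker *Six2* was present in the controls at 247 and 244 CPM and fell to 16.6 and 4.55 CPM in *Eya1*cKO (edgeR quasi-likelihood test, adjusted p = 4.3e-04).

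The promoters are shown first for the genes with a cyclic AMP response element or its near match, since that element was the only searched motif found in more than 1 of these genes. RefSeq promoter windows on GRCm38.p6, from 250 bases before to 50 bases after the start of a gene, were available here for 8 of the 10 genes and not for *Cpe* and *Vgf*. The letters TGACGTCA, a binding site of the CREB family of activators, were present in 3 of these 8 windows and in 1.79% of all 32851 windows. The motif began 72 bases before the start in *Chgb*, 68 bases before it in *Scg2* and 78 bases before it in *Pcsk1*. *Chga* held TGACGTAA, which differs by C7A counted from the 5′ end of the motif, 44 bases before its start, and this variant was in 0.499% of all windows. No other changed form of the motif was searched, and this form had not been planned, so that its share does not show how rare a near match is. Each sequence runs 5′ to 3′ on the strand of the gene from 100 bases before to 15 bases after its RefSeq start, and capitals mark the motifs. The regions are chr12:102554841-102554955 on the plus strand for *Chga*, chr2:132781542-132781656 on the plus strand for *Chgb*, chr1:79440012-79440126 on the minus strand for *Scg2* and chr13:75089757-75089871 on the plus strand for *Pcsk1*.
Chga: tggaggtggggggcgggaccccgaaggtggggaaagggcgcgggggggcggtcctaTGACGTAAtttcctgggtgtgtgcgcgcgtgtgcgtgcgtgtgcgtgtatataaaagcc
Chgb: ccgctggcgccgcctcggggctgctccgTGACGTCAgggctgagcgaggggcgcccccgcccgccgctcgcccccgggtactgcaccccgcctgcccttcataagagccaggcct
Scg2: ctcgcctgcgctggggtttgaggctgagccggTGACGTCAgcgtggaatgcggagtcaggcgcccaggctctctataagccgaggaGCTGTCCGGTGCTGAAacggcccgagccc
Pcsk1: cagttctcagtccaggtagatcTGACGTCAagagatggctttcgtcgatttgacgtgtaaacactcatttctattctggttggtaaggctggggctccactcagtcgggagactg

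The study asked about REST, a repressor of neuronal and neuroendocrine genes that binds a long element called RE1, and so the same windows were searched for it. The element was searched on both strands as TTCAGCACC and GGACAGC with 2 bases between them, and up to 3 of these 16 letters were allowed to differ. No match within 3 letters was found in the 8 windows, compared with 0.463% of all windows. With 4 letters allowed to differ, *Chga* held a match on the opposite strand at position -177 from its start, beside 3.78% of all windows. The fewest differing letters were 4 in *Chga*, 5 in *Scg2* and *Pcsk1n*, 6 in *Chgb*, *Scg5*, *Pcsk1* and *Pcsk2* and 7 in *Scg3*. The second stretch of capitals in *Scg2*, which begins 14 bases before its start, is the opposite strand of both parts of RE1 with no base between them. This arrangement was chosen after its sequence had been seen, and it occurred in 2 of the 32851 windows. A match is a run of letters and not a measured binding site, and these windows leave out more distant sequence, so that the search does not show that these genes lack an RE1. *Rest* itself had 8780, 9123, 4584 and 3540 counts in the controls and then the *Eya1*cKO libraries, or 247 ± 5.49 CPM in control and 202 ± 0.72 CPM in *Eya1*cKO cells (SD, n = 2). Its difference did not pass the threshold of 0.05 (log2 fold change -0.29 ± 0.08 SE, edgeR adjusted p = 0.077). Over the alternative settings with all 4 libraries the adjusted p was 0.048 to 0.17, and it was 0.71 and 0.68 without control 1 or control 2 and 0.0033 and 0.0031 without *Eya1*cKO 1 or *Eya1*cKO 2, with log2 fold changes of -0.33 to -0.29.

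Across all genes, 19041 passed the low-count filter, and 9.56% of them differed between genotypes at an adjusted p under 0.05, with 5.15% higher in *Eya1*cKO. Of the 10 granin and processing genes, 9 passed the filter and *Pcsk1* did not. The same threshold was met by 6 of the 9 (*Chga*, *Chgb*, *Scg2*, *Scg3*, *Pcsk1n* and *Cpe*), each of them higher in *Eya1*cKO, and nothing is read from this count because the same contrast was known when the genes were chosen. When either control library was left out, 2 of them met it (*Chga* and *Chgb*). A genotype left with a single library was assumed to vary like the other, so that the spread then came from the remaining pair alone. In 7 of the 10 genes both *Eya1*cKO libraries lay above both control libraries, which was so for 25.3% of all tested genes. In bulk samples such as these, fewer cells of a type cannot be told apart from less RNA per cell.

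**Figure D1:**
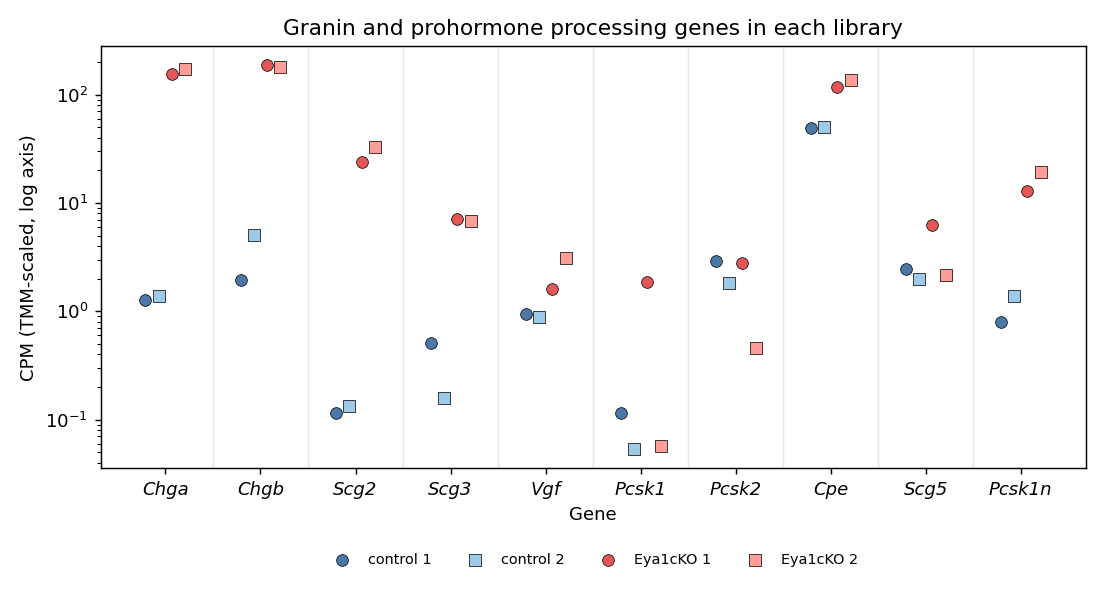
CPM of each granin and processing gene in the 2 control (blue) and 2 *Eya1*cKO (red) libraries, on a log axis with 1 point per library. *Chga* lies at 1.26 and 1.39 CPM in control and at 154 and 171 CPM in *Eya1*cKO libraries, whereas the points of *Pcsk1*, *Pcsk2* and *Scg5* overlap between genotypes.

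Among the granins, *Chga* (chromosome 12, 102554969 to 102565028 on GRCm38, plus strand, 8 exon blocks) encodes chromogranin A, a driver of granule formation and the precursor of catestatin. Its counts were 44 and 52 in the controls and 3478 and 3001 in *Eya1*cKO, which is 1.26, 1.39, 154 and 171 CPM in the same order. The libraries of each genotype lay close together and far from those of the other. The log2 fold change was 6.93 ± 0.24 (SE, n = 2 per genotype), and it stayed between 6.84 and 7.0 when any library was left out.

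*Chgb* (chromosome 2, 132781278 to 132795079, plus strand, 5 exon blocks) encodes chromogranin B, a core protein of the same granules. It had 68 and 190 counts in the controls and 4247 and 3132 in *Eya1*cKO, or 1.94, 5.07, 187 and 178 CPM. Both *Eya1*cKO libraries were far above the controls, but control 2 held 2.61-fold more than control 1. The log2 fold change of 5.68 ± 0.24 accordingly moved to 5.15 without control 1 and to 6.54 without control 2, a fold that differs by more than 1.5 times.

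*Scg2* (chromosome 1, 79434669 to 79440120, minus strand, 2 exon blocks) encodes secretogranin II, the precursor of secretoneurin. Its 4 and 5 counts in the controls were just above the 3 counts taken as the detection floor, and it had 542 and 579 counts in *Eya1*cKO. The CPM values were 0.114, 0.133, 23.9 and 32.9, the widest gap of the 9 genes with a fold. Its log2 fold change was 7.76 ± 0.70, and the few control reads limit its precision.

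*Scg3* (chromosome 9, 75643189 to 75684056, minus strand, 14 exon blocks) encodes secretogranin III, which links chromogranin A to the granule membrane. Counts of 18 and 6 in the controls and 160 and 120 in *Eya1*cKO gave 0.515, 0.16, 7.06 and 6.82 CPM. The *Eya1*cKO libraries were alike and the controls were not, and the log2 fold change of 4.38 ± 0.81 was 5.38 without control 1 and 3.73 without control 2.

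*Vgf* (chromosome 5, 137026392 to 137033351, plus strand, 6 exon blocks) encodes a granin-like precursor of several neuropeptides. Its counts were 33 in both controls and 36 and 55 in *Eya1*cKO, or 0.944, 0.88, 1.59 and 3.13 CPM. The groups did not overlap, but the *Eya1*cKO libraries stood further from each other than *Eya1*cKO 1 stood from the controls. On the log2 scale the fold change was 1.31 ± 0.79, and 0.79 to 1.77 with any library left out, below that of the other granins.

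The prohormone convertases differed from the granins in that neither was higher in both *Eya1*cKO libraries. *Pcsk1* (chromosome 13, 75089826 to 75134861, plus strand, 14 exon blocks) encodes PC1/3, which makes the early cuts in many prohormones. It had 4 and 2 counts in the controls and 42 and 1 in *Eya1*cKO, or 0.114, 0.0533, 1.85 and 0.0569 CPM. Its reads came mainly from *Eya1*cKO 1, and since 2 libraries were at or under the floor, no fold is given.

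*Pcsk2* (chromosome 2, 143546156 to 143816285, plus strand, 12 exon blocks) encodes PC2, which cuts many of the products further. It had 102, 68, 64 and 8 counts, or 2.92, 1.81, 2.82 and 0.455 CPM, so that *Eya1*cKO 1 lay within the controls and *Eya1*cKO 2 below them. The log2 fold change of -0.39 ± 0.86 was 0.25 without *Eya1*cKO 2 and -2.37 without *Eya1*cKO 1. Antisense genes *Pcsk2os1* and *Pcsk2os2* overlap 3.29% and 1.25% of its exonic length, and the strand setting of the counting is not stated.

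*Cpe* (chromosome 8, 64592542 to 64693054, minus strand, 12 exon blocks) encodes carboxypeptidase E, which removes the basic residues that the convertases leave. It was the only gene of the set with many reads in the controls, at 1707 and 1901 counts, and it had 2673 and 2386 in *Eya1*cKO. These are 48.8, 50.7, 118 and 136 CPM, and the libraries of each genotype were close. The log2 fold change was 1.34 ± 0.13, which ranged from 1.23 to 1.44 with any library left out.

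The binding partners of the convertases were *Scg5* and *Pcsk1n*. *Scg5* (chromosome 2, 113776362 to 113829121, minus strand, 7 exon blocks) encodes 7B2, the chaperone that PC2 needs to become active. It had 86, 74, 142 and 38 counts, or 2.46, 1.97, 6.27 and 2.16 CPM, so that *Eya1*cKO 1 lay above the controls and *Eya1*cKO 2 between them. Its log2 fold change of 1.02 ± 0.72 was -0.04 without *Eya1*cKO 1 and 1.49 without *Eya1*cKO 2.

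*Pcsk1n* (chromosome X, 7919822 to 7924410, plus strand, 3 exon blocks) encodes proSAAS, an inhibitor of PC1/3. Its counts were 28, 52, 291 and 340, or 0.801, 1.39, 12.8 and 19.3 CPM, and both *Eya1*cKO libraries were well above both controls. Its log2 fold change was 3.83 ± 0.60, and 6.16% of its exonic length overlaps *Eras* on the opposite strand.

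**Figure D2:**
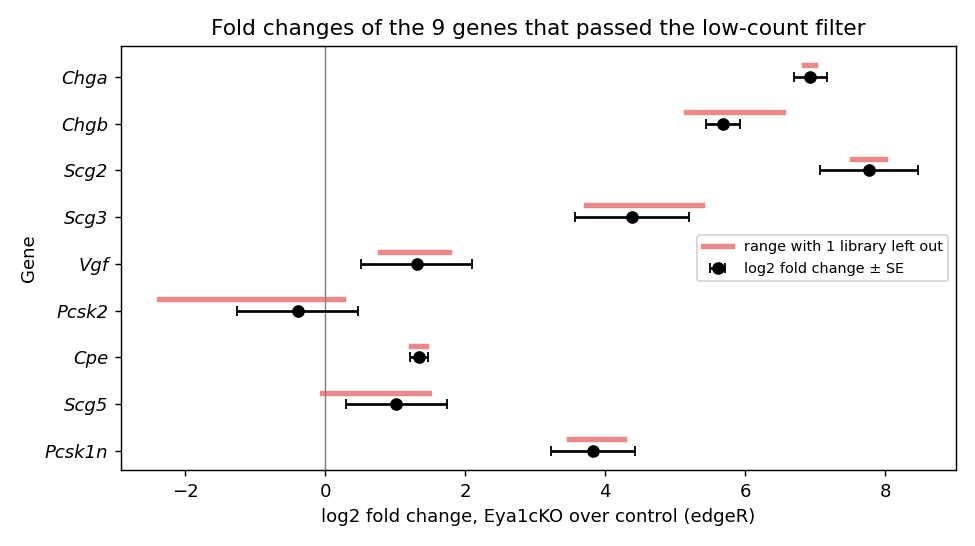
Log2 fold change of *Eya1*cKO over control for the 9 genes that passed the filter (points, with SE) and its range with 1 library left out (bars). *Chga* spans 6.84 to 7.0, whereas the ranges of *Pcsk2* (-2.37 to 0.25) and *Scg5* (-0.04 to 1.49) include 0.

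Levels were set against each other as CPM per kilobase of exon, since longer transcripts give more reads. In the controls the order was led by *Cpe* at 19.1 ± 0.511 (SD, n = 2), followed by *Scg5* at 1.41 ± 0.219, *Chgb* at 1.28 ± 0.806, *Pcsk1n* at 0.499 ± 0.189 and *Chga* at 0.48 ± 0.033. Then came *Vgf* at 0.307 ± 0.0151, *Pcsk2* at 0.299 ± 0.0986, *Scg3* at 0.123 ± 0.0916, *Scg2* at 0.0492 ± 0.00533 and *Pcsk1* at 0.015 ± 0.0077. The library ranges of 3 neighbouring pairs overlapped, which were *Scg5* and *Chgb*, *Pcsk1n* and *Chga*, and *Vgf* and *Pcsk2*.

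In *Eya1*cKO the order began with *Chgb* at 66.7 ± 2.41, *Chga* at 58.8 ± 4.4 and *Cpe* at 48.6 ± 4.8 CPM per kilobase. The first 2 changed places when the longest transcript was used as the length, with *Chga* at 86.1 ± 6.44. *Scg2* followed at 11.3 ± 2.53, *Pcsk1n* at 7.34 ± 2.09, *Scg5* at 2.69 ± 1.85 and *Scg3* at 2.54 ± 0.0615. *Vgf* at 0.793 ± 0.366, *Pcsk2* at 0.207 ± 0.212 and *Pcsk1* at 0.17 ± 0.227 closed the order, and the ranges of *Scg5* and *Scg3* and of *Pcsk2* and *Pcsk1* overlapped. By rank among 52403 genes with a symbol, *Chgb* moved from 13130 to 507 and *Chga* from 16800 to 610, whereas *Pcsk2* stood at 18704 and 19395.

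The make-up of the set differed accordingly. *Cpe* held 82.2% and 79.9% of the summed level per kilobase in the controls and 23.5% and 25.3% in *Eya1*cKO. *Chga* held 2.01% and 2.07% in the controls and 28.9% and 30.1% in *Eya1*cKO, and *Chgb* 3.12% and 7.60% in the controls and 35.5% and 31.6% in *Eya1*cKO. A set that was mostly processing enzyme in the controls was mostly granin in both *Eya1*cKO libraries. The summed level itself was 22.7 and 24.3 CPM per kilobase in the controls and 193 and 206 in *Eya1*cKO.

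**Figure D3:**
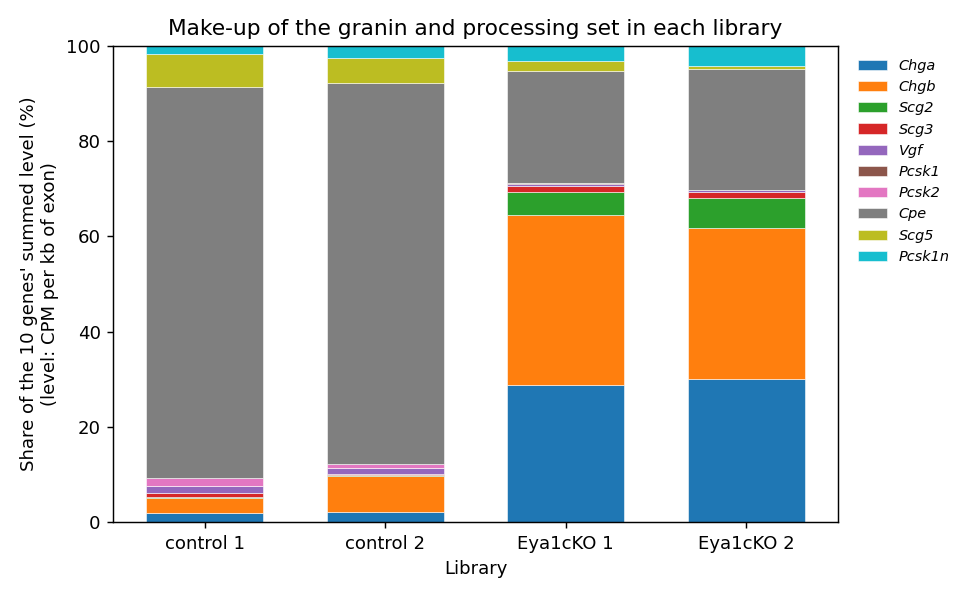
Share in percent of the 10 genes' summed level (CPM per kilobase of exon) held by each gene, with 1 bar per library. *Cpe* fills 82.2% and 79.9% of the control bars and 23.5% and 25.3% of the *Eya1*cKO bars, where *Chga* and *Chgb* take the largest other shares.

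Libraries of the same genotype were compared next. For 7 of the 10 genes the *Eya1*cKO libraries were within 2-fold of each other. The others, *Scg5*, *Pcsk2* and *Pcsk1*, were all lower in *Eya1*cKO 2 by more than 2-fold, with counting intervals wholly beyond that size. *Scg5* was 2.9-fold lower, or -1.54 on the log2 scale (exact 95% interval -2.09 to -1.01). *Pcsk2* was 6.21-fold lower, or -2.63 (-3.91 to -1.57), and *Pcsk1*, with 1 read in *Eya1*cKO 2, was at -5.03 (-10.36 to -2.47). These intervals cover counting error only.

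The genes described above as granins, *Chga*, *Chgb*, *Scg2*, *Scg3* and *Vgf*, did not share that difference, and neither did *Pcsk1n*. *Scg5*, which did, was placed above with the binding partners of the convertases, and the contrast depends on that grouping. The log2 ratio of *Eya1*cKO 2 over *Eya1*cKO 1 was 0.15 (0.08 to 0.22) for *Chga*, -0.07 (-0.14 to -0.01) for *Chgb* and -0.05 (-0.40 to 0.30) for *Scg3*. It was 0.46 (0.29 to 0.63) for *Scg2*, 0.59 (0.36 to 0.82) for *Pcsk1n* and 0.98 (0.34 to 1.63) for *Vgf*. The summed CPM of the chromaffin and sympathetic markers was 1.09 times as high in *Eya1*cKO 2 as in *Eya1*cKO 1, that of the neuronal markers 1.05 times and that of the neural crest and Schwann markers 0.746 times, and their part in the difference was not tested. Between the controls, *Chgb* stood at 1.38 (0.98 to 1.80), *Pcsk1n* at 0.79 (0.10 to 1.51), *Pcsk2* at -0.69 (-1.15 to -0.23) and *Scg3* at -1.69 (-3.31 to -0.29), and the intervals of the other 6 genes included 0.

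**Figure D4:**
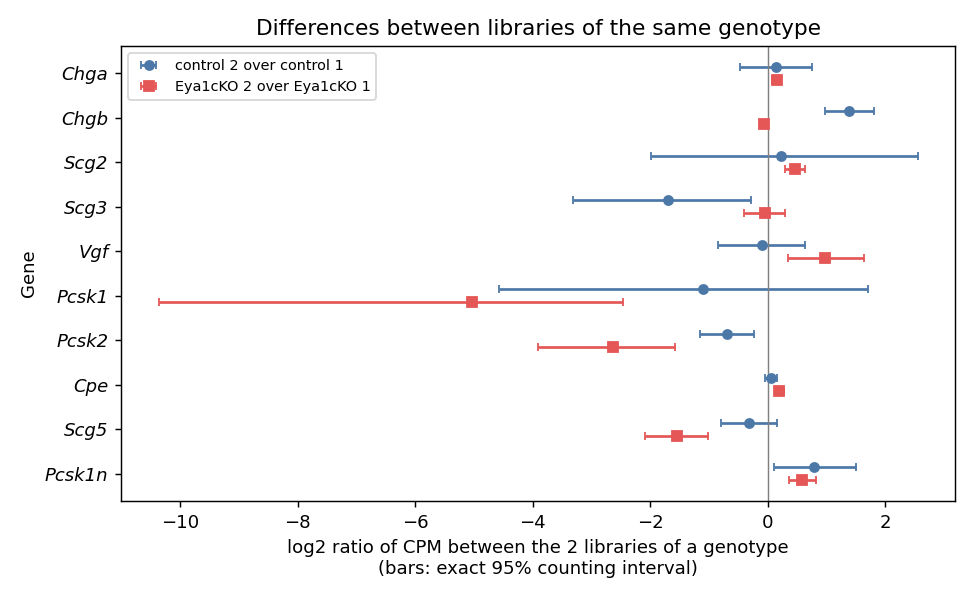
Log2 ratio of CPM between the 2 libraries of each genotype (blue circles control, red squares *Eya1*cKO) with exact 95% counting intervals. The *Eya1*cKO points of *Scg5*, *Pcsk2* and *Pcsk1* lie at -1.54, -2.63 and -5.03, and those of the granins *Chga*, *Chgb* and *Scg3* lie near 0.

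The cargo and the remaining machinery of regulated secretion were read from lists of other genes. These lists, and the marker lists that follow, were also chosen with earlier results of these data known. Their counts and p-values are therefore a description. Of 39 peptide precursor genes, 16 were tested, 1 rose, none fell and 15 did not pass the test, with a median log2 fold change of 0.15 beside 0.02 over all tested genes. A rise of 1 in 16 is near the 5.15% of all tested genes that were higher, and is no result about the precursors as a group. The gene that rose was *Penk*, the precursor of the enkephalins, which chromaffin cells store. It had 1176, 1220, 2082 and 1646 counts, and both *Eya1*cKO libraries, at 91.9 and 93.6 CPM, were above the controls at 33.6 and 32.5 CPM (log2 fold change 1.49 ± 0.14 SE, edgeR adjusted p = 0.0024). Without control 1 or control 2 its log2 fold change was 1.49 and 1.45, but the adjusted p was 0.2 and 0.23. By mean over the 4 libraries, the next most abundant precursors were *Npy*, whose mean was 3.6 CPM in control and 8.28 CPM in *Eya1*cKO cells, and *Adm*, with 5.18 and 6.04 CPM, and neither passed the test. *Nts*, the precursor of neurotensin, had means of 1.28 and 8.96 CPM and an edgeR adjusted p of 0.058, which was 0.0027 to 0.099 under alternative settings with all 4 libraries. The remaining 23 precursor genes had too few reads to be tested.

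Of 19 other processing enzymes, 18 were tested, 5 rose, none fell and 13 did not pass, beside 5.15% of all tested genes that were higher, with a median log2 fold change of 0.46. *Cpn1*, the catalytic subunit of the plasma carboxypeptidase N, stood at 11.9, 12.0, 44.8 and 63.0 CPM (log2 fold change 2.15 ± 0.26, edgeR adjusted p = 0.0055). *Aebp1*, a carboxypeptidase-like protein of the extracellular matrix, stood at 79.6, 80.3, 203 and 238 CPM (1.46 ± 0.12, adjusted p = 0.0012). *Pcsk6*, the secreted convertase PACE4, stood at 20.6, 19.7, 39.5 and 57.7 CPM (1.25 ± 0.25, adjusted p = 0.027, which was 0.059 without the low-count filter). When either control was left out the log2 fold changes kept their direction, but the adjusted p was 0.25 and 0.27 for *Cpn1*, 0.12 in both cases for *Aebp1*, and 0.49 and 0.54 for *Pcsk6*. *Cpn1*, *Aebp1* and *Pcsk6* act outside dense-core granules. The others that rose were *Pam*, which amidates peptides within granules, and the lysosomal protease *Ctsl*, whose edgeR adjusted p of 0.028 and 0.015 reached 0.076 and 0.063 under alternative settings. The most abundant enzymes by mean in control and *Eya1*cKO were *Mbtps1*, at 356 CPM in both, *Cpd*, at 277 and 272 CPM, and *Ctsl*, at 162 and 240 CPM.

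Of 25 granule components, 23 were tested, 6 rose, none fell and 17 did not pass, beside the same 5.15% of all tested genes, with a median log2 fold change of 1.40. *Dbh*, the granule enzyme that makes noradrenaline, stood at 0.315, 0.933, 67.2 and 89.8 CPM (log2 fold change 6.92 ± 0.43, edgeR adjusted p = 3.1e-04). *Ptprn*, the granule membrane protein IA-2, stood at 0.4, 0.427, 4.81 and 18.1 CPM (4.68 ± 1.05, adjusted p = 0.031, which was 0.061 without the low-count filter). *Slc18a1*, which loads amines into chromaffin granules, stood at 0.743, 1.65, 7.46 and 15.4 CPM (3.17 ± 0.72, adjusted p = 0.04, which was 0.072 without the filter and 0.066 with edgeR's older quasi-likelihood method). When control 1 or control 2 was left out the adjusted p was 0.055 and 0.062 for *Dbh*, 0.42 and 0.46 for *Ptprn*, and 0.55 and 0.5 for *Slc18a1*, with the log2 fold changes still positive. Single libraries moved these folds by more than 1.5 times, as the log2 fold change of *Ptprn* was 5.43 without *Eya1*cKO 1 and 3.51 without *Eya1*cKO 2, and those of *Dbh* and *Slc18a1* were 7.91 and 3.86 without control 2. For these 3 genes the genotypes did not overlap, and the other genes that rose were *Cyb561*, *Sytl4* and *Hid1* (edgeR adjusted p = 0.02 for *Hid1*, and up to 0.077 under alternative settings). None of the 6 genes that rose passed when either control was left out, where 7 and 6 of all the components had an unadjusted p under 0.05. The most abundant components, by mean in control and *Eya1*cKO, were the trafficking proteins *Rab2a*, at 141 and 157 CPM, *Ccdc186*, at 72.4 and 84.9 CPM, and *Vamp2*, at 71.2 and 107 CPM.

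Markers of some other cell types rose with the granins, and those of others fell or did not pass. Their counts stand beside 5.15% of all tested genes higher and 9.56% past the threshold in either direction. Of 13 chromaffin and sympathetic markers, 10 rose, none fell and 3 did not pass. The 13 summed to 35.9 and 40.1 CPM in control and to 283 and 308 CPM in *Eya1*cKO libraries. Most of the control sums came from *Gata3*, at 29.3 and 32.4 CPM, which stood at 26.3 and 12.9 CPM in *Eya1*cKO and did not pass. The median log2 fold change of the 13 was 5.52. It was 5.17 with *Slc6a2*, which had no read in either control, set at the bound that 3 counts per library allow. Under alternative settings with all 4 libraries, the edgeR adjusted p reached 0.069 for *Ddc*, 0.072 for *Slc18a1* and 0.14 for *Slc6a2*. *Th*, the first enzyme of catecholamine synthesis, stood at 0.257, 0.373, 47.4 and 54.0 CPM, whereas *Pnmt*, the enzyme that makes adrenaline, stood at 0.372, 1.17, 2.07 and 0.0569 CPM and did not pass. *Dbh* and *Slc18a1* belong to this list as well as to the granule components, so that the lists are not independent.

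All 7 adrenal cortex markers rose, from a summed 19.0 and 12.1 CPM to 727 and 691 CPM, led by the steroid enzyme *Hsd3b1* at 0.2, 0.373, 246 and 267 CPM. *Nr5a1*, *Star* and *Cyp11a1*, which mark steroid-producing cells, rose as well. Among 7 neuronal markers, 3 rose and 1 fell, with a summed level of 42.1 to 46.2 CPM in control and 78.7 to 82.3 CPM in *Eya1*cKO libraries. The marker that fell was *Elavl4* (edgeR adjusted p = 0.032, and up to 0.093 under alternative settings). For the 3 that rose, *Elavl3*, *Tubb3* and *Gap43*, the edgeR adjusted p reached 0.078, 0.052 and 0.1 under such settings. Of 6 neural crest and Schwann markers, 4 were tested and 1 rose (*Sox10*, at 0, 0.133, 3.66 and 4.27 CPM, edgeR adjusted p = 0.035, and up to 0.11 under alternative settings), with summed levels of 27.0 to 28.5 and 29.9 to 40.0 CPM.

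Of 7 nephron progenitor markers, 6 fell, from a summed 531 and 532 CPM to 68.9 and 55.2 CPM. Of 6 podocyte markers, 5 rose (847 and 873 to 2561 and 2642 CPM), of 5 ureteric bud markers, 2 fell (209 and 198 to 117 and 128 CPM), and of 5 renal stroma markers, 2 rose and 1 fell (1656 and 1616 to 2900 and 3170 CPM). Some of these calls were lost under alternative settings with all 4 libraries. The edgeR adjusted p then reached 0.094 for *Cited1*, 0.051 for *Meox1*, 0.081 for *Ret*, 0.099 for *Foxd1* and 0.1 for *Tbx18*. All 5 endothelial markers rose (456 and 467 to 769 and 836 CPM), although the edgeR adjusted p of *Pecam1* and *Tek* reached 0.11 and 0.13 under alternative settings. None of 4 immune markers passed the edgeR test, and 0 did at an unadjusted p under 0.05 or with DESeq2 (82.2 and 86.0, 68.9 and 91.4 CPM), and the 4 red cell markers were too low to be tested, at 0 to 0.747 CPM summed. When either control was left out, *Hsd3b1* was the only adrenal cortex marker and *Six2* the only nephron progenitor marker past the threshold, and 0 of the 13 chromaffin and sympathetic markers passed it in edgeR (9 in each case at an unadjusted p under 0.05), whereas 11 rose and 1 (*Gata3*) fell without *Eya1*cKO 1, and 10 rose without *Eya1*cKO 2. Without control 1 or control 2, 1 and 2 podocyte markers and 1 stroma marker in both cases passed, and no endothelial, ureteric bud, neuronal or neural crest and Schwann marker did in edgeR (at an unadjusted p under 0.05, 3 and 4, 2 and 3, 3 and 4, and 0 and 1 of them in that order). The part that a different mixture of sorted cells had in the levels of the granin and processing genes was not tested.

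**Figure D5:**
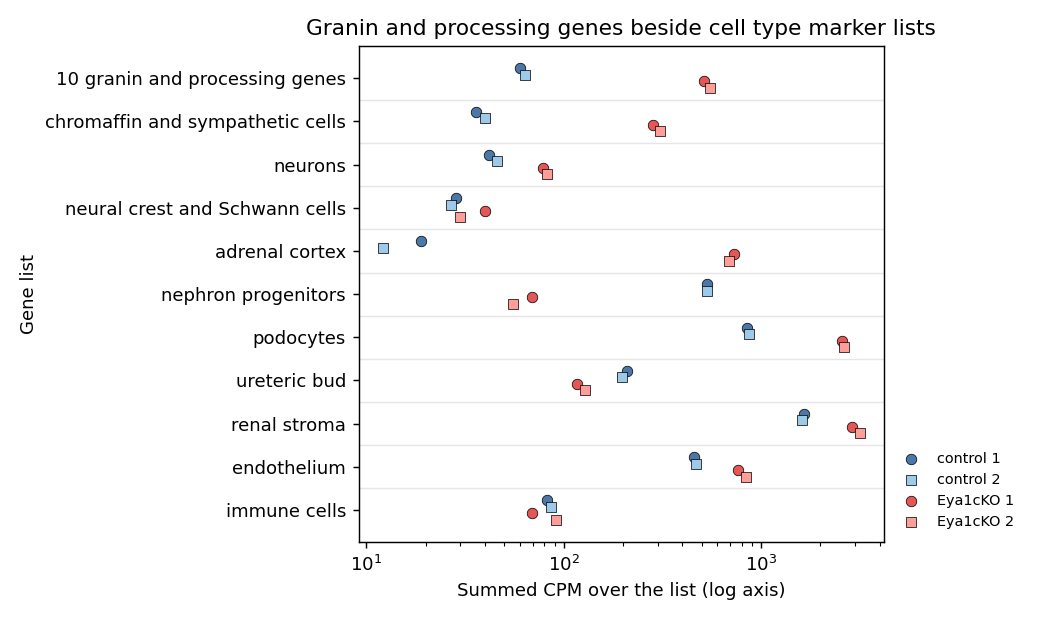
Summed CPM of the 10 granin and processing genes and of each tested marker list in the 4 libraries, on a log axis. The 10 genes sum to 59.9 and 63.6 CPM in control and to 515 and 549 CPM in *Eya1*cKO libraries, beside 19.0, 12.1, 727 and 691 CPM for the adrenal cortex markers and 531, 532, 68.9 and 55.2 CPM for the nephron progenitor markers.

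The tested genes outside the set whose levels were most like those of *Chga* were ranked by the Euclidean distance between log2 CPM values over the 4 libraries, as a description. They were *Cyp11a1* at a distance of 1.25, *Nr5a1* at 2.04, *Adh1* at 2.27, *Dbh* at 2.40 and *Kcnk3* at 2.76. *Chgb*, at 1.94, would have stood after *Cyp11a1* in that order. Since the 4 points fall into 2 genotypes, the distance reflects mainly the level of a gene in each genotype.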

How the data were processed

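RNA-seq libraries of control and *Eya1*cKO tdTomato+ cells, 2 per genotype, were made by the authors with a random-primed stranded kit. The authors aligned reads to mm10 with HISAT2 and counted them on Ensembl genes with HTSeq-count. The deposited values are raw read counts per gene, without normalization, and the strand setting is not given in the sources used here. Per the labels, 4 pregnant females gave 6 kidneys for each genotype, and the methods give other numbers. Gene counts totalled 35411905 and 37999342 in the controls and 22239293 and 17457452 in *Eya1*cKO, so that 3 counts, taken as the floor, were 0.0858, 0.0800, 0.132 and 0.171 CPM. Library records that name no gene (no feature, ambiguous, not unique, not aligned) were left out of totals and tests. Reads with no feature were 13.9%, 12.9%, 22.7% and 20.9% of the reads recorded, and ambiguous reads were 2.50% to 3.13%.

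Counts were analysed with edgeR 4.0.16 in R 4.3.3 (filterByExpr with a minimum count of 10, TMM scaling, quasi-likelihood F-test of *Eya1*cKO against control, Benjamini-Hochberg adjustment over all 19041 tested genes, threshold 0.05). The authors used DESeq2, and DESeq2 1.42.0 was run as an alternative. CPM values use TMM-scaled totals. Replicates differed by more than sampling noise, and each was counted as 1 sample. The chi-square per degree of freedom between replicates, near 1 for sampling noise alone, was 9.68 in control and 49.7 in *Eya1*cKO. Gene positions and exon lengths came from GENCODE M21 on GRCm38, and promoters from RefSeq.

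The genes and lists were chosen with earlier results of these data known. Named genes are the 10 genes, *Eya1* and *Rest*, from each list the 3 largest changes past the threshold per direction and the 3 most abundant genes, up to 4 markers per cell type, and the 5 profiles nearest to *Chga*. *Pam*, *Ctsl*, *Cyb561*, *Sytl4*, *Hid1*, *Slc6a2*, *Elavl4*, *Gap43*, *Nts*, *Gata3*, *Tbx18*, *Pecam1*, *Tek* and those in the other observations were named outside that rule, after their values were seen. Alternatives were other scalings, filters and tests, a replicate block, each library left out, another length and a looser motif match.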

Additional observations from a re-analysis of the deposited data

How the results depend on the processing

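The count of genes that differed between genotypes, 1820, was 1055 without the low-count filter, 2734 with DESeq2, 1096 with edgeR's older quasi-likelihood method and 23 to 7925 when 1 library was left out, where the spread comes from the remaining pair of 1 genotype. The log2 fold changes with 1 library left out ranged from 7.53 to 7.99 for *Scg2*, 3.73 to 5.38 for *Scg3*, -0.04 to 1.49 for *Scg5*, -2.37 to 0.25 for *Pcsk2*, 3.48 to 4.27 for *Pcsk1n* and 1.23 to 1.44 for *Cpe*. *Scg3* had 4.35 and missed the threshold with the older method. The granin and processing genes past the threshold were 2 to 8 with 1 library left out, and the cause was not tested. Precursors past it were 2 with DESeq2, 2 with at least 10 counts in every library, and 0 to 5 with 1 library left out. Processing enzymes were 3 without the filter and 0 to 12 with 1 library left out, and granule components 10 with DESeq2 and 0 to 14 with 1 library left out. With the longest transcript as length, 6 of 10 genes kept their place in the control order, and 1 window (*Chga*) held RE1 with 4 letters allowed to differ, beside 3.78% of all windows.

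The replicate numbers in the labels did not pair the libraries, since deviations of same-numbered libraries correlated at 0.0062. With the number as a replicate block, 621 genes passed, 6 of the granin and processing genes among them, and 2 processing enzymes, and *Pcsk6* and *Slc18a1* missed the threshold (edgeR adjusted p = 0.083 and 0.056). Depth limits *Pcsk1*, *Scg2* in the controls and most precursors. Over settings with all 4 libraries, 0 of 199 values reversed, and 2 of 108 did with 1 library left out (*Scg5* and *Pcsk2*).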

Other observations

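Several peptide precursor genes were read in the controls and had few or no reads in *Eya1*cKO, and they were singled out after their values were seen. *Pdyn*, the precursor of the dynorphins, had 58 and 22 counts in the controls and 0 and 0 in *Eya1*cKO. *Pomc*, the precursor of corticotropin, had 65 and 46 counts in the controls and 3 and 4 in *Eya1*cKO. *Sst*, the precursor of somatostatin, had 7 and 32 counts in the controls and 0 and 0 in *Eya1*cKO. Of the 39 precursor genes, 19 had no read in either *Eya1*cKO library and 5 had none in either control, with fewer reads in total in *Eya1*cKO. *Cck*, the precursor of cholecystokinin, differed within *Eya1*cKO, with 31 and 153 counts beside 37 and 11 in the controls. *Pdyn*, *Pomc* and *Cck* did not pass the edgeR test (adjusted p = 0.14, 0.13 and 0.16), and *Sst* had too few reads to be tested.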
